A study of Rattus norvegicus with 42 samples.

Results

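The regions described here are 500 nt bins of the rat genome in which transcription started on both DNA strands. Each lay more than 2000 nt from every peak of the deposited peak table. The larger peak sets that the paper describes were not used for this distance. Every nuclear chromosome was divided into fixed bins, the transcription start tags of 42 muscle libraries were pooled, and a bin was kept when it held at least 30 tags on each strand, a strand imbalance under 0.8 (the difference of the strands divided by their sum) and no deposited peak within 2000 nt of its edges. This gave 4515 bins out of 74854 with at least 60 pooled tags, which was 8.37% of the 53912 bins that lay away from peaks. Another 2458 bins met the tag and balance limits but lay near a peak, so that 64.7% of all 6973 bidirectional bins were distal. The bins were thus chosen by the pooled tags of both strands and the peak positions. Their number, balance and distance are therefore a description, and the tests below concern differences between groups of libraries.

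The tags came from CAGE (cap analysis of gene expression), which sequences the capped 5′ ends of RNA and so counts transcription starts at single bases. The study followed muscle through disuse and return to load in 21 mature Wistar rats, from each of which the soleus and the extensor digitorum longus (EDL) were taken. Control rats were active. The other rats had their hindlimbs unloaded by tail suspension for 1, 3 or 7 days (D1, D3, D7), or were unloaded for 7 days and then returned to load for 1, 3 or 7 days (R1, R3, R7). Each of the 14 combinations of muscle and phase held 3 libraries, 1 per animal, and both muscles of an animal carry the same animal number (U6 to U8 in the controls, U18, U20 and U21 at R1). The sources used here give no genetic modification. Whole muscles were sequenced, so fewer cells of a type and less RNA per cell cannot be told apart.

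In CAGE data of animal cells, active enhancers appear as short regions from which RNA polymerase II starts in both directions, giving unstable capped enhancer RNAs that point away from each other. Bidirectional starts far from genes are for this reason used as a first list of enhancer candidates, although repeats, unannotated promoters and capped fragments of other RNAs can look alike. The soleus is a slow postural muscle that works against gravity and atrophies when unloaded, and the EDL is a fast muscle of the lower leg that carries little postural load. The tables at hand give bin positions in Rnor_6.0 and no gene annotation of that build, so bins are named by position and no gene is assigned to them.

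The bins were weak. Their pooled tags ran from 60 to 3388 with a median of 218, and 1635459 tags lay in all of them together. They formed 3770 stretches of adjoining bins, of which 3332 were a single bin and 310 were pairs. The longest was a run of 22 bins at chr1:55701501-55712500, with 3935 tags. The nearest deposited peak lay 2005 to 9340163 nt away with a median of 47349 nt, with 969 bins closer than 10 kb and 1706 farther than 100 kb. There were 116 bins on X and 0 on Y.

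The bins just inside and just outside each limit were as follows. Bins chr1:11940501-11941000 and chr1:11943001-11943500 had 30 tags on the weaker strand, whereas chr1:6929001-6929500 and chr1:11947501-11948000 had 29 and were left out. Strand imbalance was 0.7996 in chr5:158595001-158595500 and 0.7993 in chr1:198925501-198926000, and exactly 0.8 in chr1:266413501-266414000 and chr7:11013501-11014000, which were left out. The nearest peak lay 2005 nt from chr12:30536501-30537000 and 2006 nt from chr10:57273001-57273500, against 1999 nt for chr16:759501-760000 and 1996 nt for chr1:164304001-164304500.

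The 5 bins with the most tags were found in all 42 libraries and lay between 6366 and 279273 nt from a peak. The highest, chr11:79827501-79828000, held 3388 tags, and its level ran from 3.98 to 11.9 TPM (tags divided by the library's total and multiplied by 1000000) in soleus with a median of 6.85 and from 2.64 to 10.5 TPM in EDL with a median of 6.72. Bins chr6:108123501-108124000, chr4:10749001-10749500 and chr10:47018501-47019000 held 3346, 3333 and 3318 tags, with soleus medians of 6.93, 7.39 and 8.12 TPM and EDL medians of 7.48, 7.90 and 6.14 TPM. None of the 5 differed between the muscles of control rats by more than the limits of the test given below. At R1 in soleus 1 of the 5 did, bin chr7:11013001-11013500 (3297 tags, 6366 nt from a peak), which fell by 1.41 on the log2 scale (adjusted p = 0.0155, edgeR's quasi-likelihood test with Benjamini-Hochberg adjustment).

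The libraries fell into 2 sets that cut across the study's groups, and this showed in a large share of the bins. A block at chr1:180491501-182062500 held 248 of the bins, with a summed level of 60.4 to 595 TPM in 25 libraries and 0.0454 to 3.06 TPM in the other 17. In all, 1039 bins (23.0%) had a mean level in the 17 libraries below 5% of that in the 25, and these are called two-state bins here. Their summed level was 178 to 2055 TPM in the 25 libraries and 1.13 to 14.2 TPM in the 17. The other 3476 bins summed to 3013 to 4392 TPM in the 25 libraries and 2442 to 3858 TPM in the 17, so these ranges overlapped widely. Because the split was seen in the bins themselves, it is given without a test.

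**Figure D1:**
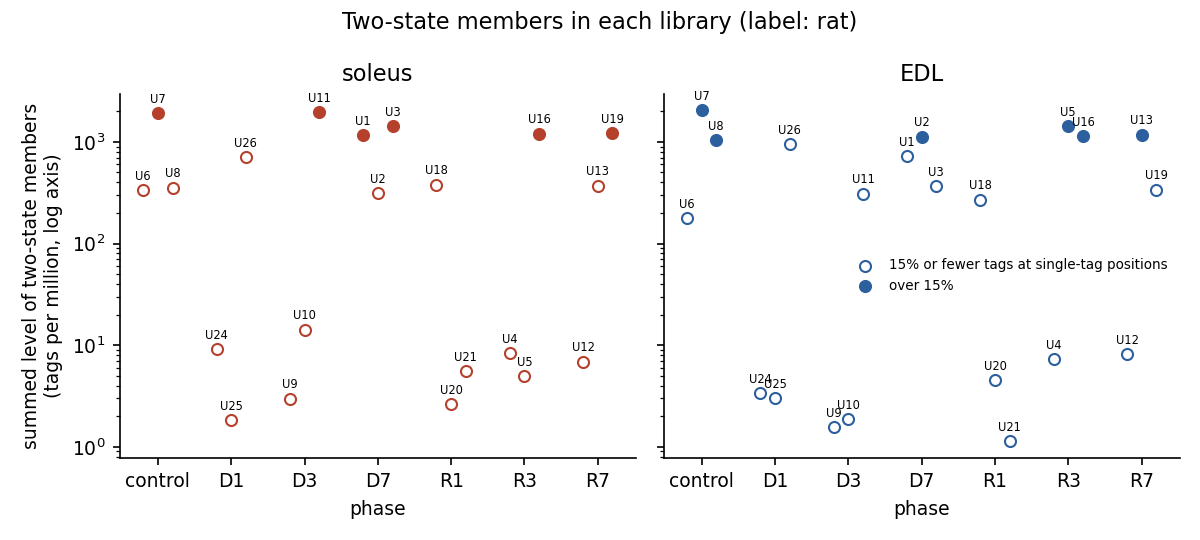
Summed level (TPM, log axis) of the 1039 two-state bins in each of the 42 libraries by phase, soleus left and EDL right, with filled points for the 12 libraries in which over 15% of tags lay at positions with a single tag. The 25 libraries with the tags sit between 178 and 2055 TPM and the 17 without them between 1.13 and 14.2 TPM, with no library in between.

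The split followed the animal more than the group. Both muscles held the tags in 12 animals and neither muscle did in 8, and in 1 animal (U5 at R3) the EDL library held them and the soleus library did not. All 6 control and all 6 D7 libraries held them, whereas at R1 they were present in U18 alone, with 378, 2.63 and 5.55 TPM in soleus U18, U20 and U21. The control soleus libraries held 337, 1907 and 354 TPM. A comparison of R1 with control or D7 therefore set 3 libraries with these tags against 1 with them and 2 without. The number of libraries with these tags also varied by sequencing lane, at 6, 2, 7, 2, 4 and 4 in lanes 1 to 6. In most rats both muscles were run in the same lane, so animal and lane are partly shared.

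The two-state bins were packed together. Together, 10 windows of up to 1 Mb held 592 of them, led by chr1:180491501-180987500 (120 bins), chr1:181000501-181995000 (114 bins), chr13:33425001-33820500 (111 bins) and chr1:55211501-55758000 (92 bins). The first 3 of these windows had similar medians over the 25 libraries, at 139, 121 and 117 TPM. Each varied widely between these libraries, from 28.9 to 313, 27.9 to 259 and 25.3 to 250 TPM. The median distance to the nearest peak was 196718 nt for two-state bins and 31942 nt for the rest. Among other bins with at least 60 tags, 2.63% of the distal ones and 3.54% of the bidirectional ones near peaks showed the same split, as did 0.141% of the remaining bins near peaks.

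Library quality measures moved with the split. Tags at positions with a single tag made up 6.01% to 29.5% of the 25 libraries and 3.39% to 8.97% of the 17, and deposited peaks took 72.4% to 94.0% and 93.0% to 95.9% of tags. The 12 libraries with over 15% single-tag positions were all among the 25, and they gave 17.0% of all tags but 58.9% of the tags in two-state bins. Whether material from other sources or the mapping of repeated sequence had a part in these bins was not tested.

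The distance between the strands separated the bins into kinds that the rule had not used. For each bin the median plus-strand start was compared with the median minus-strand start, so that starts pointing away from each other (divergent) give a positive offset and starts pointing at each other (facing) a negative one. The arrangement was divergent in 1533 bins, facing by 40 to 70 nt in 1520, and facing by another distance in 1462. Facing offsets piled up in a narrow peak, with 164 bins at −54 nt, 159 at −55 nt and 140 at −56 nt, close to the read length of 50 nt, whose part in this was not tested.

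**Figure D2:**
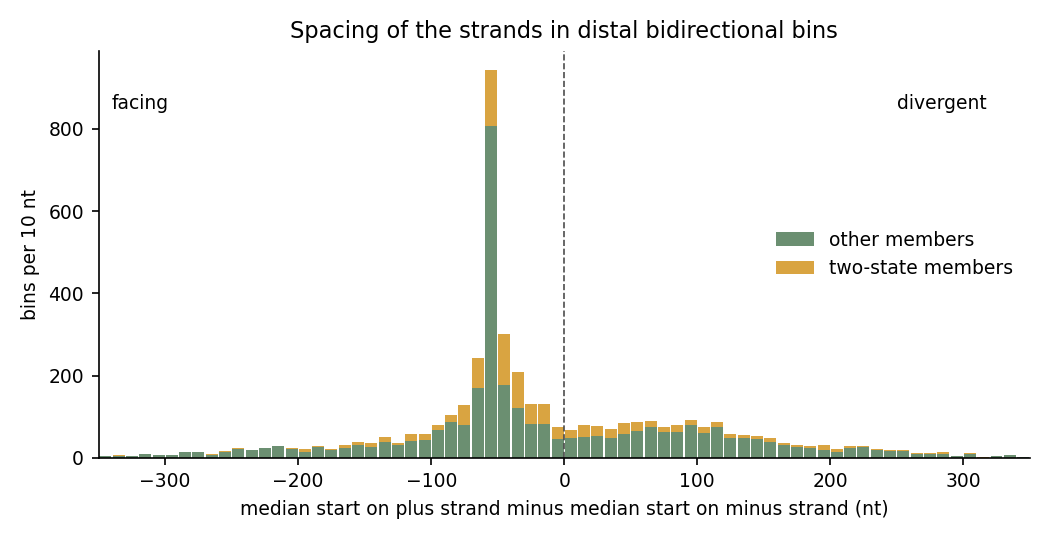
Number of bins per 10 nt of offset (vertical axis) against the offset between the median plus-strand and minus-strand start (horizontal axis, nt, positive for divergent bins), with two-state bins stacked in yellow on the others in green. A narrow peak of facing bins stands around −55 nt, beside a broad hump of divergent bins.

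With the two-state bins set aside, the 3 kinds differed in shape. The 1221 divergent bins had a median offset of 101 nt, and 80% of their plus and minus tags lay within a median of 129 and 146 nt. The 1169 bins facing by 40 to 70 nt, called sharp facing bins from here on, were far narrower, with 80% of the tags of either strand within a median of 11 nt and 23.7% of plus tags at a single base. In the 1086 other facing bins these widths were 192 and 198 nt, and 38.95% of the bins lay within 10 kb of a peak, against 23.2% of divergent and 18.05% of sharp facing bins. These shares are descriptions of the chosen bins, with no test.

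Divergent bins without the two-state ones held 1281, 1079 and 1451 TPM in the control soleus of U6, U7 and U8 and 1989, 1815 and 1780 TPM at R1. R1 and control did not overlap in these sums, but D7 held 1352, 1824 and 1248 TPM and overlapped with R1. On the TMM scale the divergent bins that could be tested had a median log2 change of 0.05 from control to R1. In EDL they held 1146, 901 and 918 TPM in the controls and 1598, 926 and 1167 TPM at R1, where the groups overlapped. The sharp facing bins held 1156, 1244 and 1203 TPM in control soleus and 1329, 1002 and 1110 TPM at R1, and their highest mean was at D7 with 1670, 1304 and 1803 TPM in U1, U2 and U3, where U1 and U3 are among the 12 libraries of many single-tag positions. The other facing bins held 1025, 935 and 920 TPM in control soleus and 1075, 993 and 967 TPM at R1. The choice of bins used these libraries, so the sums carry no p-value.

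**Figure D3:**
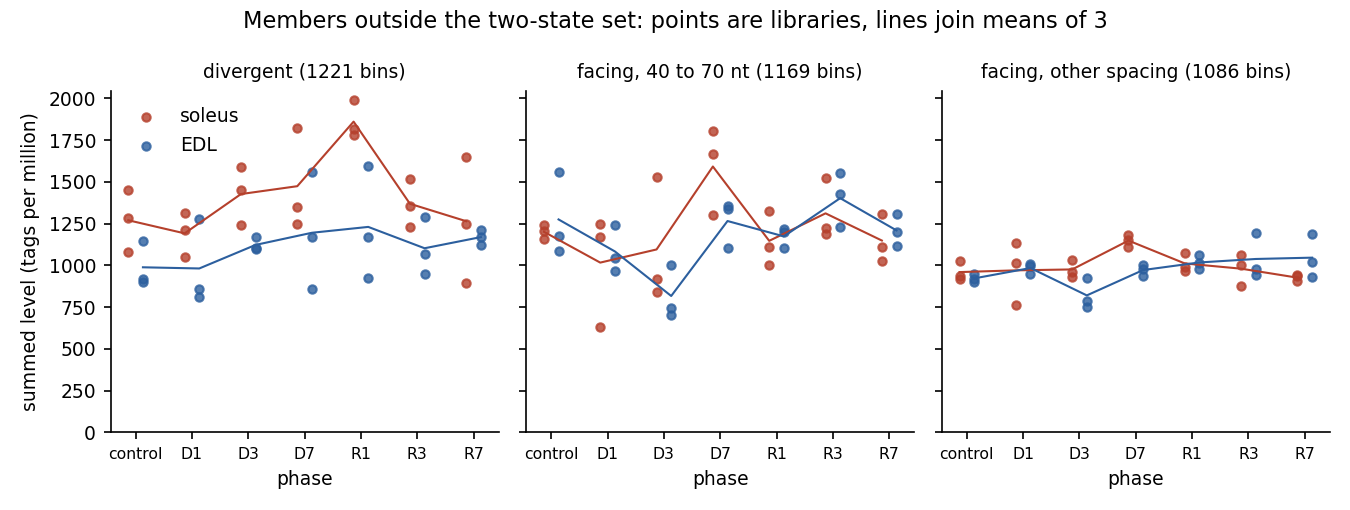
Summed level (TPM) of divergent, sharp facing and other facing bins, without two-state bins, in each library (points) by phase, soleus in red and EDL in blue, with lines through the means of 3 libraries. In soleus the R1 points of the divergent bins (1780 to 1989 TPM) lie above all control points (1079 to 1451 TPM).

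Each phase was then compared with control across all bins of a muscle, with edgeR's quasi-likelihood test. A bin was called when its Benjamini-Hochberg adjusted p, taken over all bins tested, was under 0.05 and its log2 fold change passed 1.25 in either direction. The p-values measure the spread between 3 animals per group. The test could be made in 2963 of the 4515 bins in soleus and in 1452 in EDL, since the rest had too few tags to enter. All 6 control libraries were run in lane 1 with 1 other library (soleus D1 U24) and all R1 libraries in lane 4 with 1 other (soleus R3 U4), so that a lane term ties either group to the rest through a single library. A fit of all 42 libraries with the lane as a term called 0 bins in every comparison with control, and at most 14 of 47836 among all bins. In this fit 74 of the 92 soleus rises at R1 were above 0, with a median of 1.95, against 2.48 in the soleus fit without the term. Of the 162 falls it could test, 136 were below 0, with a median of −1.35, against −1.90 over 164. The 2 fits also differ in pooling the muscles. These bins were picked for their sign in the same libraries, so keeping it is partly fixed by that choice. Lane and phase cannot be told apart here.

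Calls in soleus were concentrated at 1 day of reloading. At R1, 256 of 2963 bins were called against control, 92 higher and 164 lower, which is 8.64% beside 18.9% of all bins tested. The rises made up 3.10% of the bins beside 10.9% of all bins, and the falls 5.53% beside 7.92%. The median log2 change of the bins tested was −0.74, made up of −3.16 in two-state bins and −0.30 in the others, while that of all bins was −0.09. Of the falls, 8 were two-state bins, and of the rises 0 were. Of the 92 rises, 40 met the tag and balance limits only through the R1 libraries, and they had to be high at R1 to be among the bins at all. The same held for 14 of the 164 falls and the control libraries. Where the bins were chosen by the same rule from libraries outside this comparison, 203 were called, 52 higher and 151 lower. With library tag totals in place of TMM scaling the split turned, with 150 of 238 calls higher (20.1% of all bins were called), and without the 12 libraries of many single-tag positions 132 of 294 were higher (17.7% of all bins were called). Without R1 library U18, which gave over 25% of all tags in 31 of the bins, 145 bins were called (12% of all bins), among them 56 of the 92 rises and 73 of the 164 falls, and without control library U6 147 were, 74 higher and 73 lower (11.3% of all bins).

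In 91 of the 92 rises every R1 library lay above every control library, and 141 of the 164 falls were as clear in the other direction. A call asks for a large change between these same libraries, so this separation is partly fixed by the choice. Its share over all called bins is not given. The 92 bins summed to 46.3, 39.3 and 54.2 TPM in the control soleus of U6, U7 and U8 and to 412, 297 and 284 TPM at R1. At R3 the sums were 101, 78.0 and 68.7 TPM and at R7 104, 76.1 and 59.4 TPM, so every later library was below every R1 library. The 164 falls summed to 345, 296 and 298 TPM in control, 93.0, 113 and 119 TPM at R1, 209, 180 and 200 TPM at R3 and 151, 207 and 264 TPM at R7. These sums describe bins picked for the change between control and R1, and their values at those phases are no test of it.

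**Figure D4:**
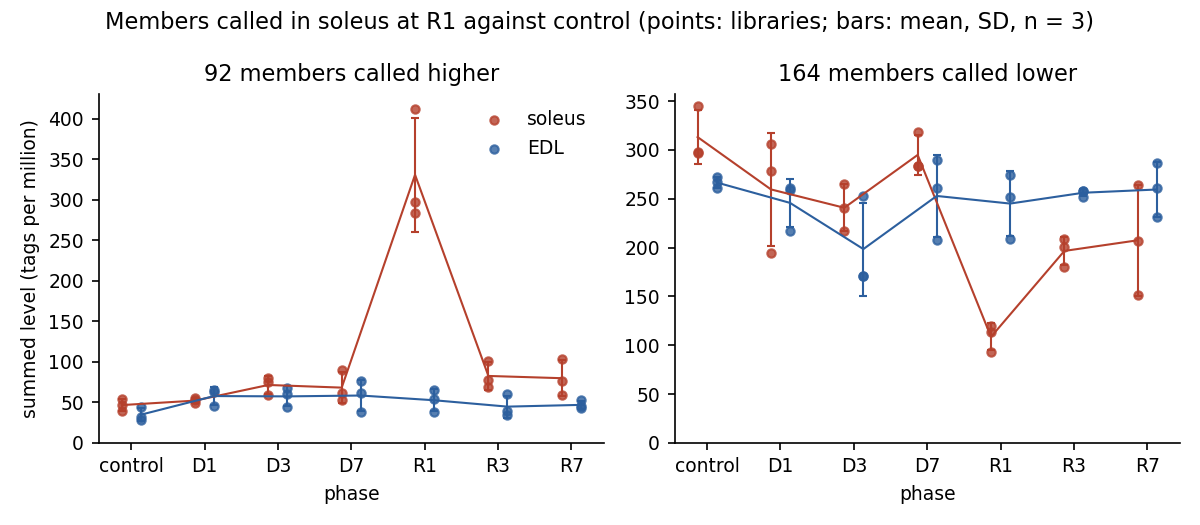
Summed level (TPM) in each library (points) by phase, soleus in red and EDL in blue, with lines through the means and bars of 1 SD (n = 3), of the 92 bins called higher and the 164 called lower in soleus at R1 against control. The rises stand at 284 to 412 TPM in soleus at R1 and at 37.9 to 65.5 TPM in EDL at R1, and the falls drop from 296 to 345 TPM in control soleus to 93.0 to 119 TPM.

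Against D7, the phase from which R1 rats came, 274 of 2963 bins were called beside 18.9% of all bins, 92 higher (11.5% of all bins) and 182 lower (7.43%). Of these, 36 of the rises met the tag and balance limits only through the R1 libraries and 14 of the falls only through the D7 libraries. This comparison shares the R1 libraries with the one above, so overlap between their calls is not given. Without the 12 libraries, which take soleus D7 down to 1 library, 100 bins were called against D7, 59 higher and 41 lower, beside 8.83% of all bins. The split was also near even with library tag totals (117 higher and 124 lower, 18.4% of all bins called) and without the filter on low counts (130 and 124, 9.96% of all bins). Without D7 library U1 157 bins were called (12.8% of all bins), without R1 library U18 168 (12.2%) and without U20 167 (13%).

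Divergent bins made up 60 of the 92 rises, that is 35 of the 52 that met the limits also without the R1 libraries and 25 of the other 40. Of the tested bins that were not two-state, 60 of 738 divergent bins were called higher and 34 lower, against 9 higher and 42 lower of 749 sharp facing bins and 23 higher and 80 lower of 629 other facing bins. All bins were called higher in 10.9% and lower in 7.92%, and divergent and sharp facing bins lay below both shares. Other facing bins lay below the share of rises and above that of falls. Without the 12 libraries the counts were 86 higher and 42 lower of 981 divergent bins, 10 and 42 of 899 sharp facing bins, and 36 and 78 of 816 other facing bins. In that fit 5027 of all 47178 bins were called higher and 3327 lower. The rises ran in the same order of kinds, while divergent and sharp facing bins had equal numbers of falls. Arrangement was read from the pooled tags, R1 included, so these counts are a description. No test of the difference between the kinds was made.

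The 6 largest rises under the naming rule had 0 tags in all 3 control soleus libraries. Each of them met the tag limit only through the R1 libraries, with 1 to 18 tags left in all other libraries together, so their levels are given as a description with no p-value. At chr1:23069501-23070000, 168160 nt from the nearest peak, the level at R1 was 4.60, 6.85 and 4.56 TPM in U18, U20 and U21, at least 62.6-fold above what 3 tags over the control group would give. The bin is divergent, with strands 203 nt apart. It held 4 tags at D7, 2 at R3 and 2 at R7 in soleus, and 0 in the 3 EDL libraries at R1.

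The next 3 rises were divergent as well. Bin chr14:16491001-16491500 held 8.99, 2.95 and 3.52 TPM at R1, at least 61.0-fold higher, and 0 tags at R3 and R7. Bin chr20:10705501-10706000 held 5.03, 5.65 and 3.90 TPM, at least 57.0-fold higher, with 0 tags at D7 and R3 and 6 at R7. Its nearest peak, 24995 nt away, rose by 3.597 on the log2 scale (adjusted p = 1.07e-05). Bin chr6:6325501-6326000 held 4.96, 2.55 and 2.75 TPM, at least 40.7-fold higher, and its peak at 2317 nt rose by 8.53 on the log2 scale (adjusted p = 9.34e-06). All of the soleus tags of this last bin were from R1.

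Bin chr17:19299501-19300000 likewise had tags in no soleus group but R1, at 1.84, 2.63 and 2.25 TPM, at least 26.8-fold higher, and 1 EDL tag in all. Bin chr17:12469001-12469500, the one facing pair of the 6, held 1.63, 1.03 and 1.21 TPM at R1, at least 15.5-fold higher, and its nearest peak did not pass the test (log2 change 0.00, adjusted p = 0.994).

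**Figure D5:**
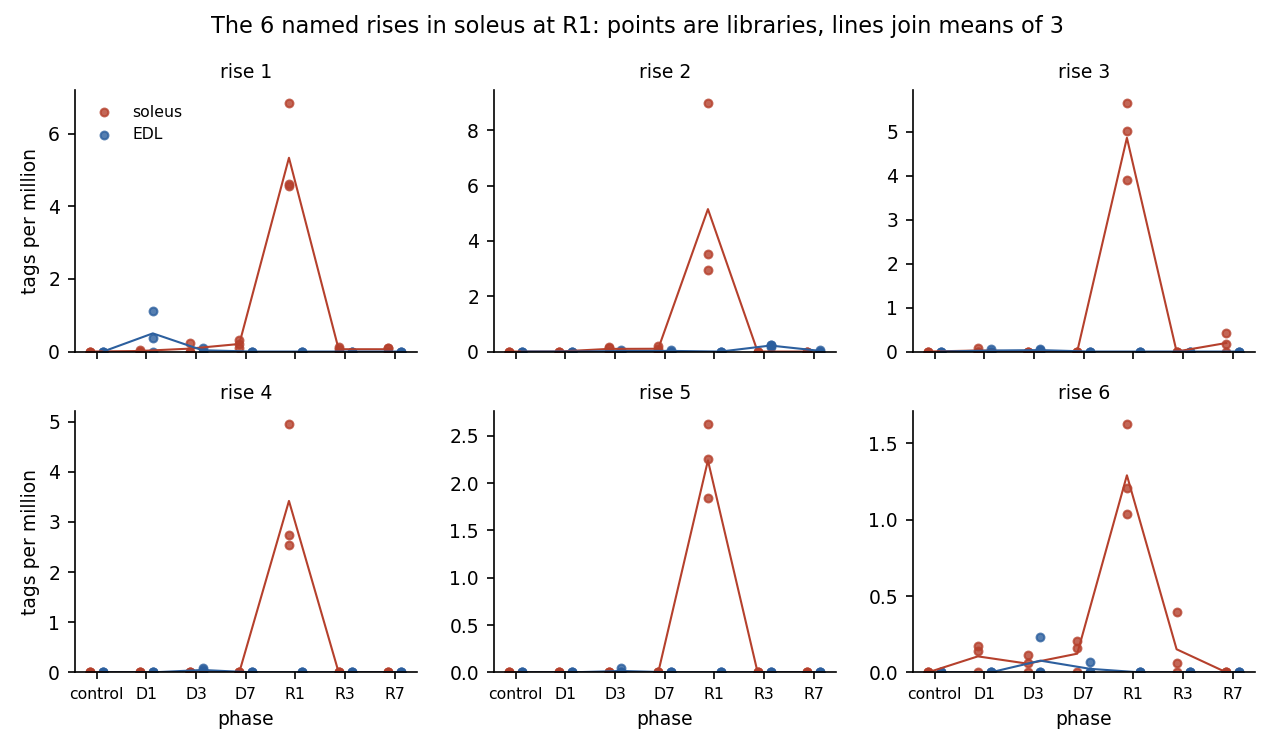
Level (TPM) in each library (points) by phase, soleus in red and EDL in blue, with lines through the means of 3 libraries, of the 6 bins with the largest rises in soleus at R1, in the order chr1:23069501, chr14:16491001, chr20:10705501, chr6:6325501, chr17:19299501 and chr17:12469001. The bins were chosen so that all 3 R1 soleus libraries stand above every control library. No EDL library passes 1.12 TPM.

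Against D7 the largest rise was at another place, chr20:8168501-8169000, a divergent bin 2841 nt from a peak. It held 0 tags in the 3 D7 soleus libraries and 8.001, 3.27 and 5.60 TPM at R1, at least 40.9-fold higher. Only 3 of its 259 tags came from other groups, so this too is a description, while its nearest peak rose by 9.14 on the log2 scale (adjusted p = 0.0041). The control group held 2 tags there, and soleus R3 and R7 and all 7 EDL groups held 0.

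The 6 largest falls under the same rule were all two-state bins. At chrX:159501-160000 the control soleus libraries held 0.120, 3.20 and 0.256 TPM and the R1 libraries 0 tags (at least 17.0-fold lower, adjusted p = 0.0495), and at chr2:49370501-49371000 the controls held 0.0601, 2.94 and 0.256 TPM (at least 15.4-fold lower, adjusted p = 0.0412). Library U7, the soleus control with the most two-state tags, carried most of the level in both. The remaining 4, chr2:161551001-161551500, chr1:56029501-56030000, chr1:56054001-56054500 and chr4:29653501-29654000, had 1.64, 2.25, 2.85 and 3.11 TPM in U7 and no more than 0.901 TPM in U6 or U8. The second of these 4 met the tag limit only through the control soleus libraries. Over 6 fits that each left out 1 library, these 6 bins were called in 0 to 2 fits each.

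Among falls outside the two-state bins, chosen here after their values were seen, 1 example that differed between the muscles was chr7:29086001-29086500. The control soleus held 5.10, 4.58 and 5.13 TPM and the R1 soleus 0.921, 0.796 and 0.604 TPM, so that it fell by 3.04 on the log2 scale (adjusted p = 0.000319). In EDL the level was 5.08, 4.90 and 5.26 TPM in control and 3.99, 4.93 and 4.79 TPM at R1. Soleus at R1 was below every other library of the 4 groups, and the EDL groups overlapped.

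Each strand was also fitted alone, over all bins with enough tags on that strand, and 109 of 1367 bins were called on the plus strand (beside 18.9% of all bins) and 110 of 1474 on the minus strand (beside 19.2%). In 18 of the 92 rises both strands could be tested, and all 18 were higher on both, 5 of them past the threshold on both. In 36 of the 164 falls both could be tested, 34 were lower on both, and 10 passed on both. Over all 667 bins with both strands tested, 459 had the same sign on both. The matching shares among all bins of the genome are not given, so these counts are not particular to the distal bins. The 92 rises include those that met the limits only through the R1 libraries, and these were not counted apart. Both strands enter the sum by which the bins were called, so the shared sign is partly fixed by that choice. No bin was called in opposite directions on its strands.

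Some nearest peaks changed the same way as the bin. Of 9842 deposited peaks tested in soleus at R1, 1450 (14.7%) were called higher and 846 (8.60%) lower. The peak nearest to the bin was called higher for 30 of the 92 rises and lower for 3, and it was called lower for 54 of the 164 falls and higher for 8. Within 10 kb the shares were 12 of 20 rises and 31 of 76 falls. Among the bins that met the limits also without the group where they were high, the nearest peak was called the same way for 15 of 52 rises and 50 of 150 falls, and within 10 kb for 5 of 10 and 28 of 68. Neighbouring bins can share a nearest peak, and distance does not assign a bin to a gene.

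The other soleus phases gave few calls. At D1, 6 of 2963 bins were called beside 0.859% of all bins, 2 higher (0.369% of all bins) and 4 lower (0.49%). Bin chr13:107831001-107831500 rose from 0.480, 0.173 and 0.256 TPM in control to 2.94, 0.954 and 1.83 TPM at D1 (log2 change 2.51 ± 0.55 SE, adjusted p = 0.03), and bin chr15:36805501-36806000 rose by 1.73 (adjusted p = 0.0417). Bin chr13:106110501-106111000 fell by 2.45 (adjusted p = 0.0346), from 3.48, 1.38 and 2.69 TPM to 0, 0.454 and 0.635 TPM, and its nearest peak, 277779 nt away, fell by 4.43 (adjusted p = 0.00537). Bin chr3:44552001-44552500 fell by 1.92 (adjusted p = 0.0466). The nearest peaks of chr13:107831001-107831500, chr15:36805501-36806000 and chr3:44552001-44552500 did not pass the test (log2 changes 0.40, 0.26 and −0.56). All 4 bins are divergent. The groups did not overlap in any of the 6, which is partly fixed by the choice of called bins. Fits that left out 1 library gave 0 to 2 calls in all.

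At D3 and D7, edgeR called 0 bins in soleus beside 0.0761% and 0.0366% of all bins, with 189 and 101 bins at an unadjusted p under 0.05 (10.8% and 7.27% of all bins). DESeq2 called 4 bins at D3 and 0 at D7, beside 0.583% and 0.4% of all bins. At R3, 1 bin was called beside 0.192% of all bins, namely chr10:45477501-45478000, which fell from 4.02, 1.38 and 3.08 TPM to 0.524, 0.665 and 0.557 TPM (log2 change −2.38, adjusted p = 0.0467). It was called in 0 of the 6 fits that left out 1 library.

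At R7, 13 bins were called, beside 2.11% of all bins, 5 higher (1.42% of all bins) and 8 lower (0.69%). Bin chr4:169180001-169180500 stood at 2.98, 2.76 and 1.73 TPM against 0.3003, 0.259 and 0.385 TPM in control, a rise by 2.94 (adjusted p = 0.0235), and its nearest peak, 18302 nt away, rose by 1.39 (adjusted p = 0.0498). At chr18:63139001-63139500, with 3 control tags, R7 stood at 1.44, 1.81 and 0.385 TPM, a ratio of 16.8 with a 95% counting interval of 5.31 to 85.0 (adjusted p = 0.0152). Bin chr10:71503501-71504000, with 3 tags at R7, had a ratio to control of 0.0867 (0.0173 to 0.269). Bin chr2:45183001-45183500, with 2 tags at R7, had 25 tags on its weaker strand without the control soleus libraries and so was chosen through them, and it is given with no ratio. The nearest peaks of chr18:63139001-63139500, chr10:71503501-71504000 and chr2:45183001-45183500 changed by 3.13, 0.74 and −1.69 on the log2 scale. Of these only the first passed the test (adjusted p = 0.0127), and the second ran against its bin. The R7 soleus libraries were run in lanes 5 and 6, and with the lane as a term the log2 changes of chr18:63139001-63139500 and chr4:169180001-169180500 turned to −2.23 and −3.52, whereas that of chr10:71503501-71504000 was −3.70 (−3.43 without the term). Without library U19, the R7 soleus library with the most two-state tags, 50 bins were called beside 5.73% of all bins, and without any other library of either group 2 to 4.

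In EDL no bin was called after reloading. At R1, R3 and R7 edgeR called 0 of 1452 bins, beside 0% of all bins in each case, with 345, 38 and 32 bins at an unadjusted p under 0.05 (9.53%, 9.64% and 3.39% of all bins). DESeq2 called 0 as well, beside 0.16%, 0.409% and 0.00939% of all bins. Of the 92 soleus rises only 13 had enough EDL tags to be tested, so for most of them a change in EDL was not measurable at this depth. The 92 bins summed to 43.9, 27.9 and 32.3 TPM in control EDL and 65.5, 37.9 and 54.3 TPM at R1, with overlap between the groups, and the 164 falls summed to 261, 267 and 272 TPM in control EDL and 209, 274 and 252 TPM at R1.

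Unloading gave a handful of EDL calls. At D1, 5 of 1452 bins were called, all higher, beside 1.83% of all bins (1.15% higher), led by chr4:144238501-144239000 with 3.94, 13.96 and 3.85 TPM against 0.656, 0.668 and 0.464 TPM (log2 change 3.64, adjusted p = 0.00899) and by chr10:40751001-40751500 (log2 change 3.18, adjusted p = 0.0369), both facing by 40 to 70 nt. Without D1 library U26 11 bins were called, 4 higher and 7 lower (2.62% of all bins), and without control U6 or U8 1 (0.468% and 0.465%). At D3, 7 were called, all lower, beside 1.03% (0.315% lower), among them chr19:24705001-24705500 (0.161, 0.173 and 0.804 against 1.39, 3.12 and 2.94 TPM, log2 change −2.98, adjusted p = 0.047) and chr13:10246001-10246500 (log2 change −2.75, adjusted p = 0.0345). DESeq2 called 62 at D3, all lower, beside 2.15% of all bins, and without the filter on low counts 152 were called, 148 lower, beside 0.95%. The D3 count also depended on U11, the D3 animal that carries two-state tags, since without its EDL library 435 bins were called beside 6.32% of all bins, 346 of them two-state bins, without control U6 96 were (1.35% of all bins), and without any other library of these groups 0 were. At D7, 1 bin was called beside 0.606%, chr6:21136001-21136500, which fell from 2.87, 3.57 and 3.56 TPM to 0.593, 0 and 1.03 TPM (adjusted p = 0.0465) and was not called in any fit that left out a library.

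Between the muscles of the control rats, 113 of 3026 bins were called, beside 8.04% of all bins, 29 higher in soleus (4.04% of all bins) and 84 higher in EDL (4.01%). Of these, 3 of the 29 met the tag and balance limits only through the control soleus libraries. The same held for 3 of the 84 and the control EDL libraries. None of the 113 was a two-state bin. With library tag totals in place of TMM the split was 50 against 60 (8.41% of all bins were called), again with more bins higher in EDL. Without the 12 libraries, which removes U7 of both muscles and U8 of EDL, 41 bins were called beside 2.85% of all bins, where EDL control is U6 alone and is assumed to vary like the other groups, and without soleus U6 or EDL U8 72 were (5.95% and 5.09% of all bins).

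The 4 bins that stood highest in soleus had 0 tags in the 3 control EDL libraries. Bin chr1:261288501-261289000, 2087 nt from a peak that was itself higher in soleus by 6.61 on the log2 scale (adjusted p = 0.000608), held 4.08, 3.63 and 2.44 TPM in soleus, at least 27.6-fold above EDL (adjusted p = 0.00054). It was not absent from EDL in all phases, with 0.590, 0.866 and 1.72 TPM at D3 and 1.07, 0.967 and 0.756 TPM at D7, while soleus at D3 held 0.387, 0.661 and 0.848 TPM. Bins chr20:55593501-55594000 (3.06, 0.950 and 2.05 TPM in soleus), chr5:154160501-154161000 (1.98, 1.73 and 2.05 TPM) and chr4:119771001-119771500 (1.26, 0.691 and 2.82 TPM) were at least 16.7-fold, 14.8-fold and 10.9-fold higher than in EDL. The last bin had 29 tags on its weaker strand without the control soleus libraries. The nearest peaks of these bins differed by −0.25, 0.78 and 0.36 on the log2 scale, and none of them was called.

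The bins that stood highest in EDL were at or near 0 in soleus. Bin chr1:100517001-100517500, 2389 nt from a peak that differed by −7.60 on the log2 scale (soleus minus EDL, adjusted p = 6.16e-07), held 3.20, 3.34 and 5.26 TPM in control EDL and 1 tag in control soleus, a soleus to EDL ratio of 0.0073 with a 95% counting interval of 0.000183 to 0.0417 (adjusted p = 4.4e-07). It stayed between 1.24 and 5.62 TPM in all 21 EDL libraries, and no soleus library passed 0.282 TPM. Bins chr8:107194001-107194500 (2.21, 0.668 and 1.39 TPM in EDL), chr10:110148001-110148500 (1.23, 1.34 and 1.70 TPM) and chr5:159555501-159556000 (1.23, 0.223 and 0.928 TPM) had 0 tags in control soleus and were at least 20.2-fold, 16.6-fold and 11.4-fold lower there. Their nearest peaks differed by −0.23, −6.22 and −0.54 (soleus minus EDL), and only the second was called.

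The change from control to R1 was also compared between the muscles, as the soleus change minus the EDL change. This used the fit of 42 libraries, again without pairing the muscles of a rat. The change differed in 16 of 3026 bins, beside 2.62% of all bins, 3 with the higher change in soleus (1.43%) and 13 with the lower (1.2%). None of the 16 was a two-state bin, and leaving out 1 library at a time left between 3 (without EDL control U6, 0.984% of all bins) and 25 (without EDL R1 U18, 2.52%). The balance of the 16 was not stable, with more bins higher than lower without soleus control U7. The balance of all bins in that fit is not given here. Of the 3, chr3:113130501-113131000 met the rule also without the R1 soleus libraries. There soleus went from 0.240, 0.346 and 0.256 TPM to 14.9, 6.05 and 2.75 TPM, while EDL held 0.164, 0.446 and 0.619 TPM in control and 0.0974, 0 and 0.378 TPM at R1 (difference of log2 changes 5.64, adjusted p = 0.00549). Bin chr7:29086001-29086500 above was among the 13 (difference −2.56, adjusted p = 0.0282).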

How the data were processed

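Single-end CAGE libraries (no-amplification protocol, 50 nt reads) of 42 muscle samples were trimmed, aligned to Rnor_6.0 with several loci allowed per read, and reduced to start positions by the authors. The deposited files give raw tag counts per base and strand. Per the labels, processing named Trimmomatic 0.38, BWA and HISAT2, whereas the study's methods name another aligner. The deposited peak table served for its positions and its tag counts per library, also raw.

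Tags were summed in 500 nt bins. Library totals ran from 1778712 to 23103236 tags, and 1 tag was worth 1000000 divided by that total in TPM. Bins with at least 60 pooled tags entered edgeR 4.0.16 (R 4.3.3; filterByExpr, TMM, quasi-likelihood), 1 model per muscle over its 7 phases, and a model of all 42 libraries for comparisons between muscles, without covariates. DESeq2 1.42.0, other scalings, no filter, a lane or animal term and left-out libraries were alternatives. Intervals and the floor of 3 tags per group cover counting error only. The scripts were tested on simulated counts.

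Members, lists and limits were chosen with earlier results of these data known. The named bins are the 5 with the most tags, and among called bins without overlap between groups and with a mean of at least 0.2 TPM, the 6 (soleus R1), 4 (muscles) or 2 (others) largest changes in each direction, 1 per stretch. Both muscles of a rat carry 1 animal number and were treated as paired in the block fit: their deviations from the group means correlated at −0.38 to 0.471 with a median of 0.231, over 0.1 in 15 of 21 rats. Sequences of the bins were not used here.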

Additional observations from a re-analysis of the deposited data

Results flagged for a closer look

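The change from control to 1 day of reloading differed between soleus and EDL in 16 bins by a test of the difference itself (edgeR's quasi-likelihood test, adjusted p under 0.05 and a difference past 1.25 on the log2 scale). In 3 of these the soleus change was above the EDL change and in 13 below. They are 16 of 3026 bins tested, beside 2.62% of all bins, and fits that left out 1 library called 3 to 25. None of these fits paired the 2 muscles of a rat. Beside chr3:113130501-113131000, the 3 were chr9:70448001-70448500, where soleus went from a mean of 0.109 to 11.4 TPM and EDL from 0.211 to 0.201 TPM (difference 6.89), and chr15:42665001-42665500, where soleus went from 0.333 to 3.73 TPM and EDL from 0.443 to 0.191 TPM (difference 4.89). These 2 had 19 and 20 tags on the weaker strand without the R1 soleus libraries, so they were chosen through those libraries and are given with no p-value.

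Among the 13, the bin chr5:154160501-154161000 had the largest difference, −6.58 (adjusted p = 0.0342). It was also 1 of the 4 bins that stood highest in soleus over EDL in control rats. Soleus held 1.98, 1.73 and 2.05 TPM in control and 0.425, 0.717 and 0.769 TPM at R1, while EDL held 0 tags in control and 0.0974, 0 and 0.630 TPM at R1. The EDL part of this difference starts from 0 tags, so its size depends on the prior count of the fit.

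Others of the 13 kept a high EDL level. At chr10:53888501-53889000 EDL held 14.5, 14.04 and 12.1 TPM in control and 11.5, 11.4 and 9.96 TPM at R1, whereas soleus went from 1.26, 1.21 and 0.641 TPM to 0.142, 0.0796 and 0.0549 TPM (difference −3.14, adjusted p = 0.0412). At chr17:78720501-78721000 the EDL means were 4.01 and 4.50 TPM and the soleus means 2.68 and 0.695 TPM (difference −2.19, adjusted p = 0.0309). The bins in this paragraph were chosen after their values were seen.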

How the results depend on the processing

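The number of bins followed the tag limit and the libraries pooled, with 7398 bins at a limit of 20 tags per strand, 2470 at 50, 2341 from soleus alone, 1749 from EDL alone and 2857 without the 12 libraries of many single-tag positions (an alternative chosen after seeing the data). A stricter balance, a larger distance to peaks and a shifted grid kept it within 1.5 times 4515. Over 212 counts of bins and calls under alternatives, 125 stayed within 1.5 times the value reported.

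Leaving out 1 library at a time gave 145 calls (without U18, 12% of all bins) to 237 (without control U8, 14.7%) for soleus R1 against control. Against D7 it gave 157 (without D7 U1, 12.8%) to 275 (without D7 U2, 13.6%). At soleus D1 it gave 0 to 2 (without D1 U26, 0.352%), at R3 0 to 1 (without R3 U5, 0.209%) and at R7 2 to 50 (without U19, 5.73%). In EDL it gave 1 to 11 (without U26) at D1, 0 to 435 (without U11) at D3 with 96 without control U6, and 0 in every fit at D7. Between the muscles of controls it gave 72 to 93, and for the difference between muscles 3 (without EDL control U6) to 25 (without EDL R1 U18). Without soleus control U6, 147 bins were called at R1 against control.

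The fit with the lane as a term called 0 bins at soleus D1, R1, R3 and R7, R1 against D7, and EDL D1, D3 and D7, against 6, 256, 1, 13, 274, 5, 7 and 1. In it 26 of 30 log2 changes of named bins kept their direction, 10 of them at least as large. These bins were named for their change in the same libraries, so this is no test of the lane. The lane fit turned the other 4, to −2.23 at chr18:63139001-63139500 and −3.52 at chr4:169180001-169180500 (R7) and to 3.45 at chr1:56025001-56025500 and 4.22 at chr16:22116501-22117000 (R1 against D7). All 6 control libraries lie in lane 1, with 1 other library. Counts here are followed by the share of all bins called. DESeq2 called 4 bins at soleus D3 (0.583%), 7 at R3 (1.54%), 62 at EDL D3 (2.15%), 2 at EDL D7 (1.22%) and 9 for the difference between muscles (3.51%). Library totals gave 2 calls at soleus D1 (0.645%), 0 at R3 (0.138%), 2 at EDL D3 (0.923%) and 0 at EDL D7 (0.535%). Without the filter there were 0 calls at soleus D1 (0.278%), 0 at R3 (0.016%), 152 at EDL D3 (0.95%), 0 at EDL D7 (0.132%) and 8 for the difference between muscles (0.697%). Without the 12 libraries, which leaves 1 library in EDL control and in soleus D7 whose spread is then taken from the other groups, there were 0 at soleus R3 (0.00848%), 49 at R7 (4.50%), 100 for R1 against D7 (8.83%), 0 at EDL D1, D3 and D7 (0.0119%, 0.00716% and 0.0215%), 41 between muscles (2.85%) and 4 for their difference (0.416%). With both muscles in 1 fit there were 0 at soleus R3 (0.0114%) and 2 at EDL D7 (0.369%). Of the 256 calls at soleus R1, 248 lay outside the two-state bins, among 2116 such bins tested. This was counted in the main fit, where 18.9% of all bins, two-state ones included, were called. No fit without the two-state bins was made. Leaving out the 12 libraries and setting the two-state bins apart were both chosen after seeing the data. With the animal as a replicate block, 105 of 3363 bins differed between the muscles of controls, 26 higher in soleus and 79 in EDL (6.94%). Without the block 113 of 3026 did (8.04%). The change at R1 differed between muscles in 12 of 3363 bins with the block, 5 higher in soleus and 7 lower (2.39%). Without it 16 of 3026 did, 3 higher and 13 lower (2.62%). All 8 named bins fitted with the animal block kept their call. They were named for their difference in the same libraries, so keeping the call is partly fixed by that choice. The cause of these shifts was not tested. Low depth limits the EDL most, where 3063 of 4515 bins could not be tested.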
